A study of Homo sapiens with 10 samples.

Results

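The dual-specificity phosphatases that switch off mitogen-activated protein kinases (MAPKs), and the Sprouty inhibitors that act upstream of them, were examined as a set of 10 genes out of 18417 with a named probe set: DUSP1, DUSP2, DUSP4, DUSP5, DUSP6, DUSP8, DUSP10, DUSP16, SPRY2 and SPRY4. They were chosen by gene name with earlier results of these data known, so counts of the set are a description and not a test. Each was represented by a single probe set. Expression was measured on Affymetrix whole-transcript arrays in human breast cancer lines, SKBR3 and MDA-468, both labelled as expressing mutant p53. Cells were transfected transiently with control double-stranded RNA (siControl) or with siChe-1, which targets AATF, the gene of the Che-1 protein, and RNA was taken 48 h later. There were 2 siControl and 2 siChe-1 arrays of SKBR3, and 3 siControl and 3 siChe-1 arrays of MDA-468. The labels name a single reagent against Che-1, so a response to loss of Che-1 and a response to the duplex itself cannot be told apart.

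MAPK cascades relay signals from growth factor receptors and from stress through a chain of kinases that ends in ERK, JNK or p38. MAPK phosphatases remove phosphate from both the threonine and the tyrosine of the activation loop, and so end the signal. Many of them, like the Sprouty proteins, are themselves induced by the pathway they restrain, which makes their mRNA a common readout of MAPK feedback. In breast cancer cells the pathway is driven largely by receptors of the ERBB family.

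In each line the targeted gene, AATF, had no siChe-1 array as high as a siControl array. It stood at 63.3% of its control level in SKBR3 and at 30.5% in MDA-468, a change of -0.66 ± 0.10 and of -1.71 ± 0.08 (log2 change ± SE). The lines carried their defining markers: ERBB2 lay at 12.15 to 12.40 on the SKBR3 arrays, and EGFR at 12.20 to 13.07 on the MDA-468 arrays, on the log2 scale. Array medians were 6.36 to 6.45 in SKBR3 and 6.87 to 6.94 in MDA-468, so levels are compared within a line. Of the marker lists of other cell types, 4 of 6 fibroblast, 4 of 5 leukocyte and 5 of 6 endothelial genes lay below 6.03, the filter level for genes tested, in SKBR3 siControl; in MDA-468 siControl these were 3, 3 and 4. PTPRC, CD3E, PECAM1, DCN and LUM were below it in every group, whereas COL1A1, COL1A2 and CLDN5 were above it in all. LCP1 lay at 10.00 to 10.05 in SKBR3 siControl and 9.35 to 9.52 with siChe-1, and CD14 at 9.48 to 9.58 in MDA-468 siControl and 10.07 to 10.27 with siChe-1. In MDA-468 the summed log2 level of the 5 leukocyte genes was 29.7 to 30.2 with siControl and 31.2 to 31.8 with siChe-1, and that of the 6 endothelial genes 33.8 to 34.6 and 35.5 to 36.4. The sum of the 6 fibroblast genes there was 31.8 to 32.5 and 32.8 to 33.4. That of EGFR, KRT5 and KRT14, the 3 of 6 listed basal-like markers with a named probe set, was 32.5 to 33.1 and 36.2 to 36.5. In each of these cases all siChe-1 sums were higher. The sum of the 6 luminal and ERBB2-amplified markers went the other way there, 63.2 to 63.5 with siControl and 62.1 to 62.9 with siChe-1. The part of these lists in the results was not tested. IFIT1, an antiviral gene induced by interferon, rose in SKBR3 (95% interval of the log2 change 7.72 to 8.29) and in MDA-468 (7.38 to 7.85), and its part in the changes below was not tested either.

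With siChe-1, MAPK phosphatase and Sprouty genes rose in both lines, and no gene of the set fell. In SKBR3, 5 of the 10 rose; of all 12892 genes tested, 23.7% were called in either direction and 6.64% higher there. The genes of the set that rose in SKBR3 were DUSP1, DUSP5, DUSP10, SPRY2 and SPRY4. DUSP10 and SPRY2 lay below the filter level on every SKBR3 array, were tested there through their MDA-468 values, and lost the call when SKBR3 was fitted alone, which leaves 3. In MDA-468, 8 of the 10 rose, where 43.5% of all genes were called and 16.4% were called higher: DUSP1, DUSP4, DUSP5, DUSP6, DUSP8, DUSP16, SPRY2 and SPRY4. DUSP1, DUSP5, SPRY2 and SPRY4 were called higher in both lines, where 4.85% of all genes were. Without SPRY2, whose SKBR3 call rests on values below the filter level, DUSP1, DUSP5 and SPRY4 remain. The median change of the set was 0.38 in SKBR3 and 0.61 in MDA-468 on the log2 scale, beside -0.08 and -0.02 over all genes tested. Every siChe-1 array lay above every siControl array for 7 genes in SKBR3 (14.5% of all genes) and 8 in MDA-468 (23.9% of all genes). The SKBR3 median and the 7 genes include DUSP10 and SPRY2, with values there below the filter level. The reverse, every siChe-1 array lower, held for none of the set, and for 37.8% of all genes in SKBR3 and 36.0% in MDA-468. In these bulk samples, fewer cells of a type and less RNA per cell cannot be told apart. The filter on low values did not depend on siChe-1 for any of them, since the mean over the 5 siControl arrays alone was at or above the filter level for all 10. In SKBR3, however, DUSP6, DUSP10, SPRY2 and SPRY4 lay below that level with siControl; array signals that low tend to understate fold changes.

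**Figure D1:**
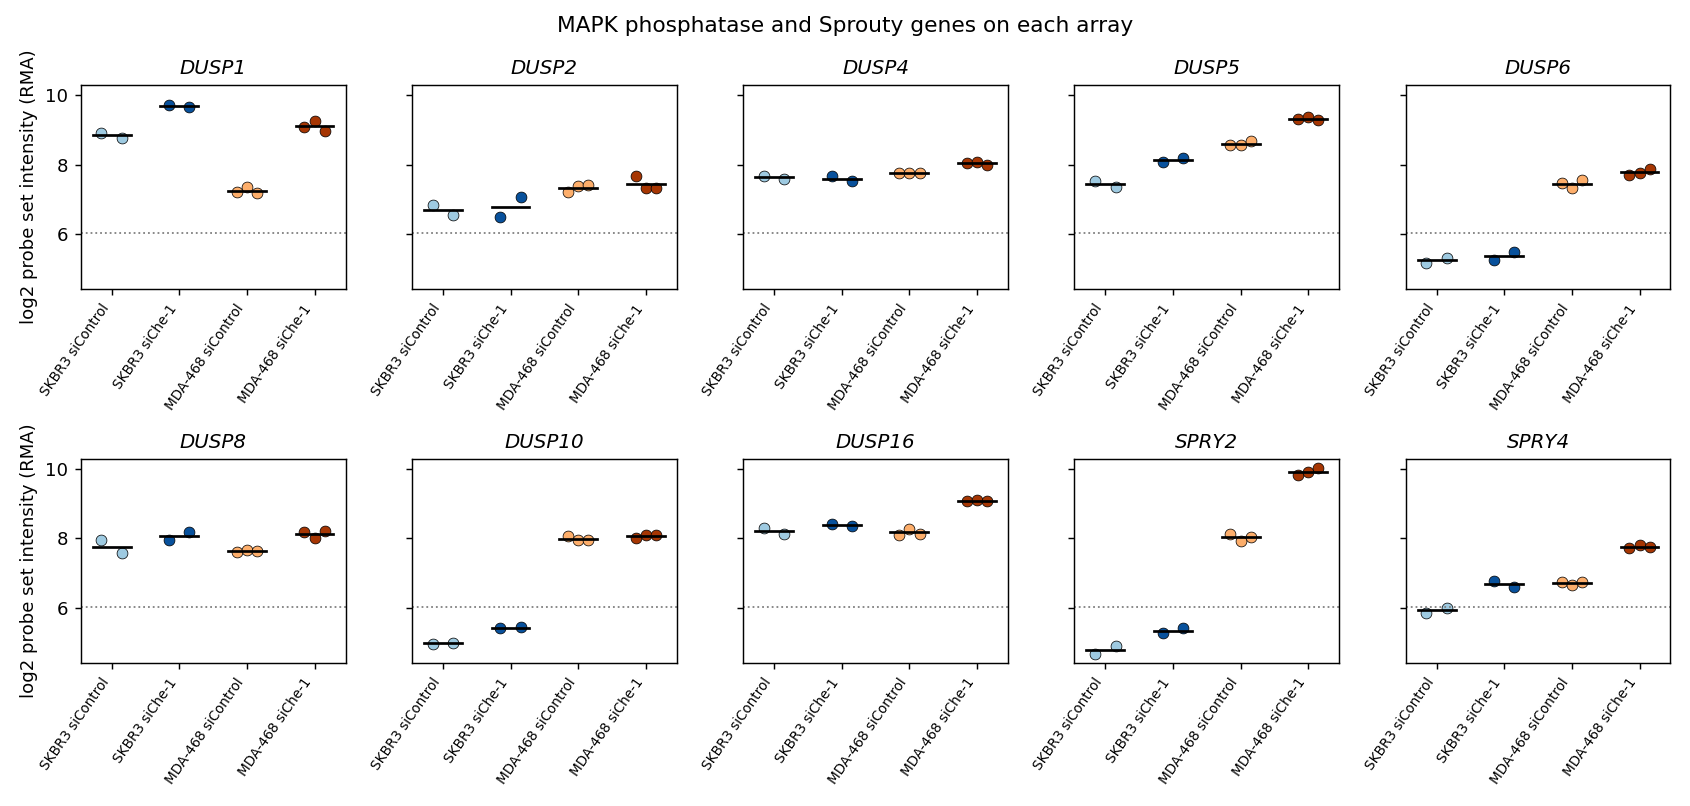
Log2 probe set intensity (vertical axis) of the 10 genes on each of the 10 arrays, by line and duplex (horizontal axis). Points are arrays, short black lines are group means, and the dotted line is the filter level of 6.03. DUSP1 and SPRY2 in MDA-468 show the widest gaps between the siChe-1 and the siControl arrays.

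The Sprouty genes rose in both lines. SPRY2 and SPRY4 encode membrane-associated proteins that dampen the signal from receptor tyrosine kinases to ERK. In SKBR3, SPRY2 read 4.67 and 4.90 on the siControl arrays and 5.28 and 5.40 on the siChe-1 arrays. In MDA-468 it read 8.13, 7.93 and 8.03 with siControl and 9.84, 9.91 and 10.03 with siChe-1. The groups did not overlap in either line, but all SKBR3 arrays stayed below the filter level. The rise was 0.55 ± 0.11 in SKBR3 (limma adjusted p = 0.00612) and 1.90 ± 0.09 in MDA-468 (adjusted p = 3.82e-08), a 1.47-fold and a 3.73-fold change. SPRY2 had the 148th highest change of 12892 genes in MDA-468 and the 555th in SKBR3. The SKBR3 call was lost when SKBR3 was fitted alone, at an adjusted p = 0.0889.

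SPRY4 read 5.85 and 6.00 with siControl and 6.76 and 6.60 with siChe-1 in SKBR3. In MDA-468 it read 6.73, 6.67 and 6.74 with siControl and 7.72, 7.80 and 7.76 with siChe-1. All siChe-1 arrays were above the siControl arrays of their line. The rise was 0.75 ± 0.10 in SKBR3 (limma adjusted p = 0.000279) and 1.05 ± 0.08 in MDA-468 (adjusted p = 1.28e-06). This is a 1.69-fold and a 2.07-fold change. Both calls were kept under each alternative in which SPRY4 was tested.

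The promoter windows of the Sprouty genes are shown because both were called higher in both lines, SPRY2 in SKBR3 on values below the filter level. RefSeq windows (GRCh38.p14) run from 250 bases before to 50 bases after a gene's start, and the table held 11 windows of 8 of the 10 genes; DUSP4 and DUSP5 were not matched. The most upstream of the 3 SPRY2 windows lies at chr13:80341077-80341376 and the SPRY4 window at chr5:142324198-142324497, both on the minus strand, and both are given 5′ to 3′ in the direction of transcription.
SPRY2: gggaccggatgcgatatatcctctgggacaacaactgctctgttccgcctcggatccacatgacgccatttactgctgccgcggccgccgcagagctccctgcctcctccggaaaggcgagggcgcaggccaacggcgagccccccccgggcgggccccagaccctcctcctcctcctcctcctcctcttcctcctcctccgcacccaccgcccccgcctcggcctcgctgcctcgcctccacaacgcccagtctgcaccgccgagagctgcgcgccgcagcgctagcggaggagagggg
SPRY4: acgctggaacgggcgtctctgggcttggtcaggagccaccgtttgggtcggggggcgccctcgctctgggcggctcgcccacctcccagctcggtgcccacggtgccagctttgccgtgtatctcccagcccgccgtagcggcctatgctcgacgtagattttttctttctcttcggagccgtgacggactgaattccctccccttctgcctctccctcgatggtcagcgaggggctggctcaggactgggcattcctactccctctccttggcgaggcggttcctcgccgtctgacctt
Neither window held any of the motifs searched on both strands: the cAMP response element TGACGTCA, the AP-1 site TGANTCA, the ETS site CGGAAG, the interferon-stimulated response element GAAANNGAAA, the CArG box and the NF-kappaB site. None of the 11 windows held the AP-1 site (7.71% of 35116 windows of the same length), the interferon-stimulated response element (3.57%), the CArG box (1.29%) or the NF-kappaB site (11.3%).

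Among the phosphatases of the nucleus that can be induced, DUSP1 and DUSP5 rose in both lines. DUSP1, also called MKP-1, is an immediate early gene whose product dephosphorylates p38, JNK and ERK. In SKBR3, DUSP1 read 8.91 and 8.78 with siControl and 9.72 and 9.65 with siChe-1. In MDA-468 it read 7.21, 7.36 and 7.17 with siControl and 9.09, 9.26 and 8.98 with siChe-1. The siChe-1 arrays lay above all siControl arrays in each line, with a gap of over 1 log2 unit in MDA-468. The rise was 0.85 ± 0.11 in SKBR3 (limma adjusted p = 0.000425) and 1.86 ± 0.09 in MDA-468 (adjusted p = 4.26e-08), or 1.80-fold and 3.64-fold. DUSP1 had the 153rd highest change of 12892 genes in MDA-468. Both calls were kept under every alternative.

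DUSP5 encodes a nuclear phosphatase that is specific for ERK. It read 7.53 and 7.36 with siControl and 8.07 and 8.18 with siChe-1 in SKBR3. In MDA-468 it read 8.58, 8.55 and 8.69 with siControl and 9.32, 9.37 and 9.29 with siChe-1. The groups did not overlap in either line. The rise was 0.68 ± 0.10 in SKBR3 (limma adjusted p = 0.000609) and 0.72 ± 0.08 in MDA-468 (adjusted p = 2.54e-05). Both calls were kept under every alternative.

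The other inducible nuclear phosphatases moved less. DUSP4, or MKP-2, read 7.76 to 7.77 with siControl and 7.98 to 8.08 with siChe-1 in MDA-468, a rise of 0.27 ± 0.07 (limma adjusted p = 0.00998). In SKBR3 it read 7.60 to 7.67 and 7.52 to 7.67, with a change of -0.04 (95% interval -0.24 to 0.16). DUSP2, also called PAC-1 and best known from activated lymphocytes, passed the test in neither line. Its change was 0.10 (95% interval -0.32 to 0.52) in SKBR3 and 0.11 (-0.23 to 0.45) in MDA-468, and its arrays overlapped in both. Its siChe-1 replicates had the largest SD of the 10 genes in each line, from 6.50 to 7.08 in SKBR3 siChe-1 and from 7.32 to 7.68 in MDA-468 siChe-1.

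DUSP6, or MKP-3, is the cytoplasmic phosphatase that acts on ERK and a standard marker of ERK output. In MDA-468 it read 7.31 to 7.55 with siControl and 7.70 to 7.87 with siChe-1, groups that did not overlap. The rise was 0.33 ± 0.10 (limma adjusted p = 0.0164), but the call was lost without siControl replicate 2 (adjusted p = 0.0774) and without siChe-1 replicate 3 (adjusted p = 0.0632). In SKBR3 it read 5.16 to 5.49 over all 4 arrays, below the filter level, and its change of 0.13 did not pass the test (95% interval -0.13 to 0.39).

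Of the phosphatases that prefer JNK and p38, DUSP16 and DUSP8 rose in MDA-468, and DUSP10 in SKBR3. DUSP16, or MKP-7, read 8.11, 8.28 and 8.13 with siControl and 9.09, 9.12 and 9.07 with siChe-1 in MDA-468. In SKBR3 it read 8.29 and 8.14 with siControl and 8.42 and 8.35 with siChe-1. The arrays did not overlap in either line, but the gap was narrow in SKBR3. The rise was 0.92 ± 0.08 in MDA-468 (limma adjusted p = 3.82e-06), or 1.89-fold. The SKBR3 change of 0.17 ± 0.10 did not pass the test (adjusted p = 0.236).

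DUSP10, or MKP-5, was the only gene of the set that passed the test in SKBR3 and not in MDA-468. It read 4.95 and 4.99 with siControl and 5.42 and 5.43 with siChe-1 in SKBR3, all below the filter level. In MDA-468 it read 8.07, 7.95 and 7.95 with siControl and 8.02, 8.10 and 8.10 with siChe-1, and the groups overlapped. The change was 0.46 ± 0.09 in SKBR3 (limma adjusted p = 0.00419) and 0.09 (95% interval -0.07 to 0.24) in MDA-468. The SKBR3 call was lost when SKBR3 was fitted alone, at an adjusted p = 0.122.

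DUSP8 read 7.61 to 7.67 with siControl and 8.03 to 8.22 with siChe-1 in MDA-468, a rise of 0.50 ± 0.11 (limma adjusted p = 0.00245). In SKBR3 it read 7.58 to 7.95 and 7.97 to 8.17, a change of 0.31 ± 0.13 that did not pass the test (adjusted p = 0.112). It did pass there without siControl replicate 1 (adjusted p = 0.0312) or without siChe-1 replicate 1 (adjusted p = 0.0451). Without siControl replicate 2 the change was 0.12 (adjusted p = 0.630), and without siChe-1 replicate 2 it was 0.20 (adjusted p = 0.414).

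The promoter windows of DUSP1 and DUSP8 are shown because they alone of the 8 genes held the full cAMP response element, which 1.85% of all 35116 windows held. The DUSP1 window lies at chr5:172771146-172771445 and the DUSP8 window at chr11:1572222-1572521 (GRCh38.p14, minus strand, given 5′ to 3′ from RefSeq). Capitals mark the motif TGACGTCA and, in DUSP8, also the ETS site CGGAAG.
DUSP1: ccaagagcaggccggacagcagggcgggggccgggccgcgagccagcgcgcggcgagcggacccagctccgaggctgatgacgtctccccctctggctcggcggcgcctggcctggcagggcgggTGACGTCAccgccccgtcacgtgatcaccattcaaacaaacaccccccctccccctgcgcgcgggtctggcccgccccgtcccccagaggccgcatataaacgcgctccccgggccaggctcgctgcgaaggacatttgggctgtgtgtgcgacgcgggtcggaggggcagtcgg
DUSP8: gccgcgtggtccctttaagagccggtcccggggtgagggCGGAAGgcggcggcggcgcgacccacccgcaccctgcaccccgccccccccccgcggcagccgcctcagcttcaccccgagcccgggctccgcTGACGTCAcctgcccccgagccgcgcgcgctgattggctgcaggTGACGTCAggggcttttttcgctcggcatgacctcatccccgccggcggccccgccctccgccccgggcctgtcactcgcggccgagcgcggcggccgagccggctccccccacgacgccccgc
Counted from the gene's start, the motif begins at position -125 in DUSP1, and at -118 and -74 in DUSP8. The ETS site was found in DUSP6 and DUSP8, and in 19.5% of all windows. These matches describe letters and show no binding.

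**Figure D2:**
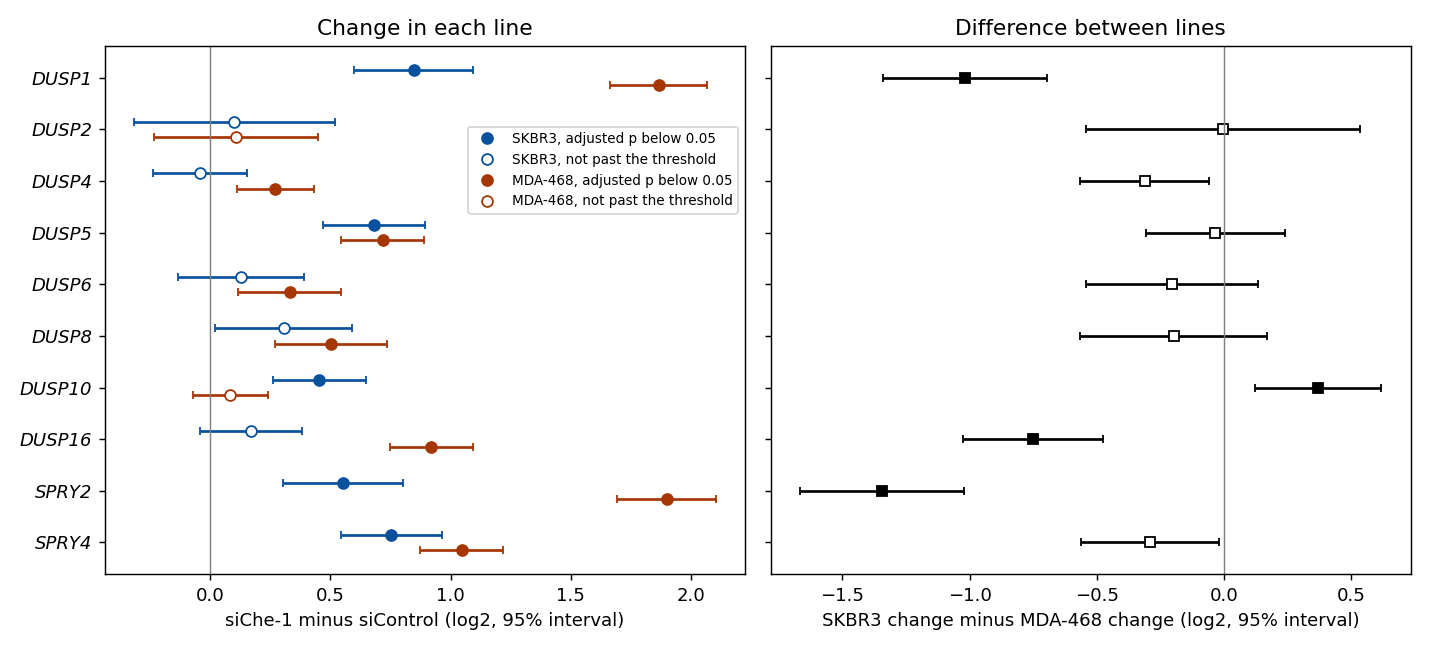
Change with siChe-1 in each line (left) and the difference between those changes, SKBR3 minus MDA-468 (right), on the log2 scale with 95% intervals, for the 10 genes. Filled symbols have an adjusted p below 0.05 and open symbols do not. SPRY2, DUSP1 and DUSP16 lie furthest to the left of 0 on the right.

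The size of the response differed between the lines for 4 of the 10 genes, 1 above and 3 below 0; of all genes tested, 19.2% were called, 8.49% above and 10.7% below. DUSP1 rose by 1.02 log2 units less in SKBR3 than in MDA-468 (SE 0.15, limma adjusted p = 0.000818) and DUSP16 by 0.75 less (SE 0.12, adjusted p = 0.00193). The measured difference for SPRY2 was -1.35 (SE 0.15, adjusted p = 0.000129), but all its SKBR3 arrays lay below the filter level, so the value does not size the SKBR3 response. These 3 differences kept their call under every alternative run on them. DUSP10 differed the other way, by 0.37 (SE 0.11, adjusted p = 0.0418), but this call was lost under 15 of the 17 alternatives fitted for it, with an adjusted p of up to 0.156. The SKBR3 values of DUSP10 lay below the filter level too, and the part of low signal in both differences was not tested. No difference was called for DUSP5 (-0.04, 95% interval -0.31 to 0.24), SPRY4 (-0.29, -0.56 to -0.02), DUSP4 (-0.31, -0.56 to -0.06), DUSP6 (-0.20, -0.54 to 0.13), DUSP8 (-0.20, -0.57 to 0.17) or DUSP2 (-0.01, -0.54 to 0.53). AATF itself fell less in SKBR3, by 1.05 log2 units (SE 0.12), so depth of knockdown and line cannot be told apart.

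The other MAPK phosphatases and receptor feedback inhibitors moved in both directions. Of 9 tested, 5 rose in MDA-468 (DUSP7, ERRFI1, SPRED1, SPRED2 and SPRY1) and 1 fell, with a median of 0.23; in SKBR3 none rose and 1 fell, with a median of -0.03. Of all genes, 16.4% were called higher and 27.0% lower in MDA-468, and 6.64% higher and 17.1% lower in SKBR3. ERRFI1, which binds and inhibits the EGFR kinase domain, rose by 1.21 ± 0.08 in MDA-468, from a mean of 9.49 to 10.70, and changed by -0.03 ± 0.10 in SKBR3. LRIG1, a transmembrane protein that promotes degradation of ERBB receptors, fell in MDA-468 by 1.16 ± 0.10, from 9.78 to 8.62, and changed by -0.12 ± 0.12 in SKBR3. SPRED1, a Sprouty-related inhibitor of Ras activation, moved in opposite directions: it rose by 0.56 ± 0.09 in MDA-468 and fell by 0.48 ± 0.10 in SKBR3. The difference between lines was called for all 3 of these genes (limma adjusted p = 0.000112 for ERRFI1, 0.00103 for LRIG1 and 0.000421 for SPRED1). SPRY1 changed by 0.26 ± 0.10 in SKBR3 (adjusted p = 0.0809) and SPRED3 by 0.38 ± 0.19 (adjusted p = 0.177), neither past the threshold. The MDA-468 call of SPRED2 was lost under 7 of 19 alternatives, and the SKBR3 call of SPRED1 under 2.

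**Figure D3:**
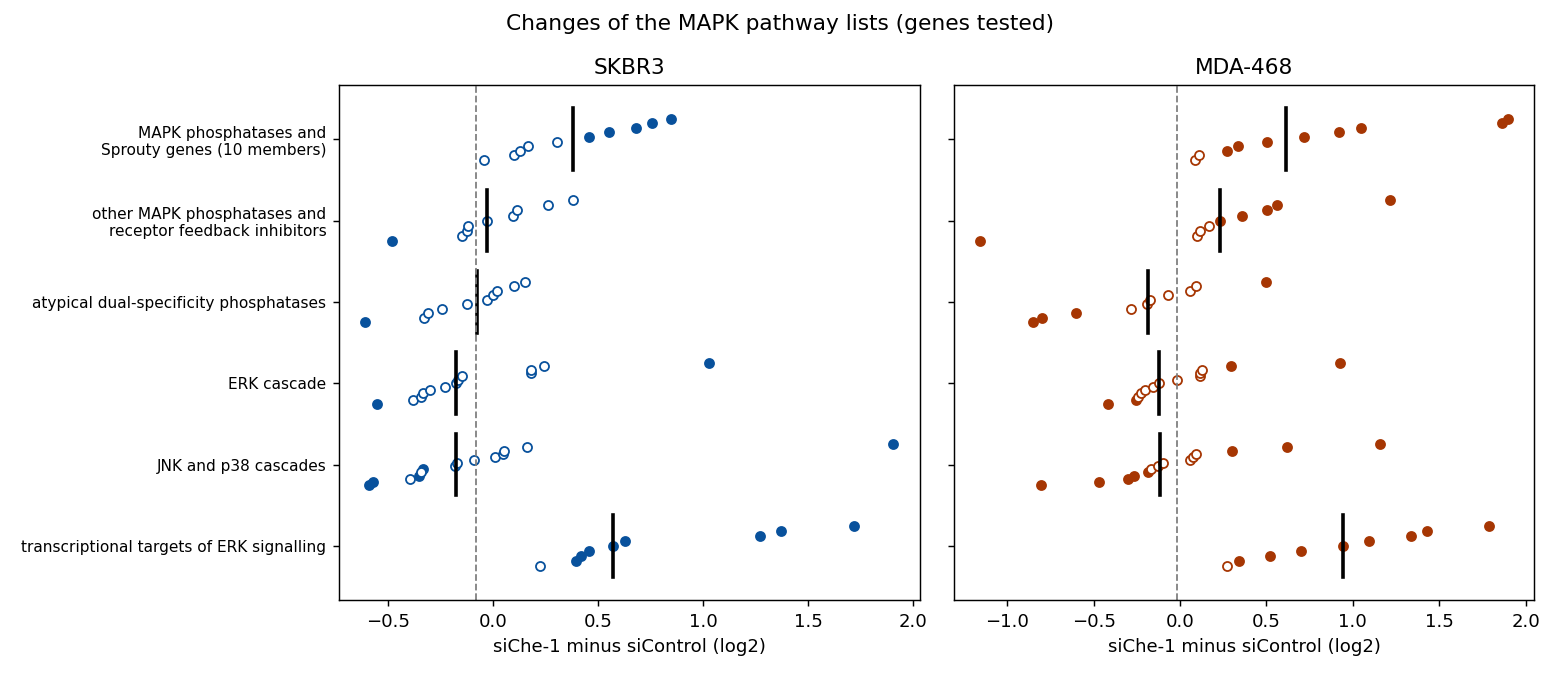
Change with siChe-1 on the log2 scale (horizontal axis) of the tested genes of 6 lists in SKBR3 (left) and MDA-468 (right). Filled points have an adjusted p below 0.05, short vertical lines are list medians, and the dashed line is the median of all genes tested, -0.08 in SKBR3 and -0.02 in MDA-468. The upper list and the lowest list lie mostly to the right of that line, with medians of 0.38 and 0.57 in SKBR3 and 0.61 and 0.94 in MDA-468.

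Most tested transcriptional targets of ERK signalling rose. Of 12 listed, 9 were tested, and 8 rose in SKBR3 and 8 in MDA-468, with medians of 0.57 and 0.94; of all genes, 6.64% and 16.4% were called higher. The SKBR3 call of CCND1 (0.39 ± 0.13) was lost under 11 of 19 alternatives, that of PHLDA1 under 5 and that of EPHA2 under 3. FOSL1 did not pass in SKBR3 (0.22 ± 0.12) and CCND1 did not pass in MDA-468 (0.27 ± 0.10). EPHA4, an ephrin receptor, rose by 1.72 ± 0.10 in SKBR3 and 1.79 ± 0.08 in MDA-468. EPHA2 rose by 0.46 ± 0.10 and 1.43 ± 0.08, the zinc finger factor EGR1 by 1.37 ± 0.15 and 1.34 ± 0.12, FOS by 1.27 ± 0.17 and 1.09 ± 0.14, and MYC by 0.63 ± 0.09 and 0.94 ± 0.07. ETV1, ETV4 and ETV5, ETS factors often read with DUSP6, had means over all arrays below the filter and were not tested. In MDA-468, ETV1 had a mean of 5.93 with siControl and 5.80 with siChe-1, ETV4 of 6.39 and 6.37, and ETV5 of 6.30 and 6.71.

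Called changes of the ERK cascade genes went in both directions in each line. Their medians lay below those of all genes tested, -0.08 in SKBR3 and -0.02 in MDA-468. Of 13 ERK cascade genes tested, 1 rose and 1 fell in SKBR3 and 2 rose and 2 fell in MDA-468, with medians of -0.17 and -0.12. These counts are no higher than the 23.7% and 43.5% of all genes called in either direction, and 5 further listed genes had no probe set named to them alone and were not analysed here. KSR1, a scaffold that brings RAF, MEK and ERK together, rose by 1.03 ± 0.12 in SKBR3 and 0.93 ± 0.09 in MDA-468. MAP2K1, which encodes MEK1, rose by 0.29 ± 0.08 in MDA-468 (lost under 3 of 19 alternatives) and changed by -0.30 ± 0.10 in SKBR3 (limma adjusted p = 0.0567); the difference between lines was called (adjusted p = 0.0103). RPS6KA3, the ERK-activated kinase RSK2, fell by 0.55 ± 0.14 in SKBR3, a call lost under 4 of 19 alternatives, and ARAF fell in MDA-468 by 0.42 ± 0.09 and the adaptor GRB2 by 0.25 ± 0.07.

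Of 18 JNK and p38 cascade genes listed, 16 had a probe set named to them alone and 14 were tested. MAPK14 and MAP2K7 had no such probe set, and MAP2K6 and MAPK10 fell under the filter. Of the 14 tested, 1 rose and 4 fell in SKBR3, and 3 rose and 5 fell in MDA-468. Of all genes, 6.64% rose and 17.1% fell in SKBR3, and 16.4% rose and 27.0% fell in MDA-468. MAP3K8, also called TPL2, a kinase that activates MEK downstream of inflammatory receptors, rose in both lines, by 1.90 ± 0.10 in SKBR3 and 1.16 ± 0.08 in MDA-468. The rise was larger in SKBR3 (difference 0.75 ± 0.13, limma adjusted p = 0.00258). MAP2K3, which activates p38, rose by 0.62 ± 0.10 in MDA-468, and MAPK13, a p38 isoform, fell there by 0.81 ± 0.09. In SKBR3 the JNK genes MAPK8 and MAPK9 fell by 0.57 ± 0.15 and 0.59 ± 0.14, MAP3K4 fell by 0.35 ± 0.08 and MAPKAPK3 by 0.33 ± 0.11. MAPK8 read 8.58 and 8.74 with siControl there and 8.37 and 7.81 with siChe-1, and MAPK9 10.04 and 10.02, then 9.71 and 9.17. The 2 SKBR3 siChe-1 arrays were less alike (r = 0.978) than any pair within another group. The MAPKAPK3 call was lost under 13 of 19 alternatives, that of MAPK8 under 4, and those of MAPK9 and MAP3K4 under 3 each.

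Genes with the most similar course over the 10 arrays were found by Pearson's r after the mean of each line was removed. The arrays share lines and duplexes, so high values of r are common, and no p is given. DUSP2 and the genes named below as closest to it were called in neither line, so their r does not rest on a called response. SPRY2 was most like ATP6V1C2 (r = 0.999) and BTN2A2 (r = 0.997), and SPRY4 was most like IRF1 and SRPK2 (r = 0.997 for each). DUSP1 was most like REC8 and IL6 (r = 0.994 for each), with IL6 changing by 2.61 in SKBR3 and 5.19 in MDA-468. DUSP5 followed ITPR3 (r = 0.993) and AGRN (r = 0.992), and DUSP16 followed AQP3 (r = 0.995) and RHOV (r = 0.994). DUSP10 was most like SGK1 (r = 0.972) and TNFSF10 (r = 0.969), the latter changing by 5.75 in SKBR3 and 1.30 in MDA-468. The closest genes to DUSP4 were PARP6 (r = 0.987) and KLHL42 (r = 0.984), to DUSP8 PCNX3 and VSIR (r = 0.980 for each), to DUSP2 CPLX1 (r = 0.986) and COL6A2 (r = 0.983), and to DUSP6 TMOD2 (r = 0.932) and PDE4B (r = 0.926).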

How the data were processed

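The authors deposited log2 values per probe set, and the submitters' processing notes name RMA and Affymetrix Expression Console without versions. RMA subtracts background, equalises the distributions of arrays and combines the probes; the sources used here do not say which arrays went into it together. Of 33297 probe sets, 19460 had 1 gene symbol in the platform annotation, 1754 several and 12083 none, and 19429 were matched to RefSeq by gene ID. For each of 18417 genes the probe set with the highest mean was kept. Genes with a mean under the 30th percentile, 6.03, were dropped, which left 12892.

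Cell means of the 4 groups were fitted with limma 3.58.1 in R 4.3.3 (lmFit, eBayes; 6 residual and 4.92 prior degrees of freedom). P-values were adjusted over the 12892 genes by Benjamini-Hochberg, and a gene counts as changed below 0.05. The script was tested on simulated data. The number of arrays limits the precision, and since no label says that replicates were separate cultures, p-values measure the spread between these arrays, which may be technical.

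The genes, lists and tests were chosen with earlier results of these data known. From each other list, the rule names up to 3 genes per line with the smallest p, and all called genes where these number 5 or fewer. DUSP7, SPRED2, PHLDA1, FOSL1, CCND1, ETV1, ETV4, ETV5 and IFIT1 fall outside it and were named after their values were seen. Alternatives were other filters, lines fitted separately, a replicate block, renormalized or centred arrays, another variance model, probe set means, and the omission of each array.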

Additional observations from a re-analysis of the deposited data

Results flagged for a closer look

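The change with siChe-1 differed between the lines, by the fit's test of the difference, for 17 named genes, of which DUSP14, DUSP18 and DUSP22 are atypical phosphatases described under the other observations. Values are SKBR3 change minus MDA-468 change on the log2 scale. Below 0 were ERRFI1 (-1.24), SPRY2 (-1.35), SPRED1 (-1.04), DUSP1 (-1.02), EPHA2 (-0.97), DUSP16 (-0.75), DUSP14 (-0.74), MAPK8 (-0.63), MAP2K1 (-0.59) and MAP2K3 (-0.57). Above 0 were AATF (1.05), LRIG1 (1.04), DUSP18 (0.82), MAP3K8 (0.75), DUSP22 (0.70), MAPK13 (0.63) and DUSP10 (0.37). DUSP18 read 5.09 to 5.42 over all SKBR3 arrays, below the filter level, as did SPRY2 and DUSP10. DUSP22 read 5.89 to 6.19 over the SKBR3 arrays and MAPK13 5.80 to 6.12, both close to the filter level. Signals that low leave little room for a fall in SKBR3, and their part in these differences was not tested. Of all genes tested, 10.7% were called below 0 and 8.49% above. The genes from the other lists were named for a small p in 1 line, so the number 17 cannot be set against these shares. The call was lost under 15 of 17 alternatives for DUSP10, 12 of 18 for MAPK8, 7 of 18 for DUSP14 and for MAP2K3, 2 of 18 for DUSP22, 1 of 18 for MAPK13 and 1 of 17 for DUSP18.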

How the results depend on the processing

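With each line fitted alone, 669 genes were called in SKBR3 in place of 3057, and 3 of the 10 genes rose there in place of 5. These were DUSP1, DUSP5 and SPRY4. The 50th-percentile filter, which drops DUSP2, DUSP6, DUSP10 and SPRY4, left 3 that were not the same: DUSP1, DUSP5 and SPRY2. Same-numbered arrays did not deviate alike from their group means. For the SKBR3 numbers r was -0.56, a single value because each group there had 2 arrays. For those of MDA-468 r ran from -0.49 to 0.0015. Whether the arrays were prepared in pairs cannot be told from these values. With the replicate block, 1249 genes were called in SKBR3 and 1104 in place of 2471 for the difference between lines. A block with the SKBR3 siChe-1 numbers crossed, added after seeing the data, gave 3267, 5804 and 2583 genes for SKBR3, MDA-468 and the difference. Of the 10 genes, the number with a larger change in SKBR3 went from 1 (DUSP10) to 0 under no filter, the 50th-percentile filter, either block, renewed quantile normalization over all arrays or within lines (the latter added after seeing the data), centred arrays and the trended robust variance.

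Leaving out each array gave 1292 (without SKBR3 siControl replicate 2) to 5370 (without SKBR3 siChe-1 replicate 1) genes called in SKBR3, 4544 to 6523 in MDA-468 and 1492 to 4047 for the difference. Of the 10 genes, 5 to 6 rose in SKBR3, 7 to 8 rose in MDA-468, 0 to 1 changed more in SKBR3, and 3 to 5 changed less there. The 5 are reached without SKBR3 siChe-1 replicate 1, when DUSP4 (adjusted p = 0.0251) and SPRY4 (adjusted p = 0.0393) join.

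Among the 10 genes, the signs that turned were of changes that were not called. Leaving out arrays, DUSP2 ranged from -0.19 to 0.39 in SKBR3, from -0.014 to 0.17 in MDA-468 and from -0.29 to 0.28 for the difference, DUSP4 from -0.11 to 0.031 in SKBR3, and DUSP5 from -0.12 to 0.045 for the difference. Quantile normalization over all arrays gave 0.022 for DUSP4 in SKBR3, 0.0093 for the DUSP2 difference and 0.024 for the DUSP5 difference; within lines it gave 0.021, 0.0017 and 0.0096. The cause of these shifts was not tested.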

Other observations

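The atypical dual-specificity phosphatases, smaller enzymes without the MAPK docking domain, showed called changes at about the share of all genes in MDA-468, 4 of 10 against 43.5%. Of 13 listed, 10 were tested. In SKBR3, 1 fell and none rose, and in MDA-468, 3 fell and 1 rose, with medians of -0.07 and -0.18. Of all genes, 17.1% were called lower and 6.64% higher in SKBR3, and 27.0% lower and 16.4% higher in MDA-468. STYX, a catalytically inactive relative, fell by 0.61 ± 0.14 in SKBR3 and by 0.80 ± 0.11 in MDA-468; the SKBR3 call was lost under 4 of 19 alternatives. DUSP18 fell by 0.85 ± 0.12 and DUSP22 by 0.60 ± 0.11 in MDA-468, while DUSP14 rose by 0.50 ± 0.13 there. In SKBR3, DUSP11 changed by -0.33 ± 0.13 and DUSP12 by -0.31 ± 0.20, neither past the threshold.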
